A study of Mus musculus with 56 samples.

Results

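Voltage-gated sodium channels, voltage-gated calcium channels, epithelial sodium channels and HCN channels carry most of the inward currents of neurons, and their subunit genes were followed here in motor neurons and whole spinal cord of mice. The 47 genes were chosen by symbol alone: Scn with a number and the letter a or b, Scnn1, Cacna1, Cacna2d, Cacnb, Cacng and the HCN genes, leaving out symbols that end in os. They were 47 of the 43629 genes in the count files. By role they comprised 10 sodium channel alpha subunits, 4 sodium channel beta subunits, 3 epithelial sodium channel subunits, 4 L-type, 3 P/Q-, N- and R-type and 3 T-type calcium channel alpha1 subunits, 4 alpha2delta, 4 beta and 8 gamma or TARP subunits, and 4 HCN channels. A filter on low counts kept 45 of them for testing. Scnn1b and Scnn1g did not pass it: Scnn1b had no read in any of the 25 motor neuron libraries, and Scnn1g had reads in 5.

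The study sequenced ribosome-bound RNA that was pulled down from Chat-expressing cells with a tagged ribosomal protein (MN-TRAP, 25 libraries) and RNA of all spinal cord cells (31 libraries). All mice carried the Chat bacTRAP transgene (line DW167), which places the EGFP-L10a tag in cholinergic cells. Chat bacTRAP mice without a second transgene are named healthy control 1 in the labels. In the group called hTDP-43A315T here, the mice also carried the mutant human TDP-43A315T transgene (line 95Balo/J) and are labelled diseased, and in the group called hTDP-43WT they carried the normal human protein (line 3cPtrc/J) and are labelled healthy control 2. Both TDP-43 transgenes are driven by the prion promoter, so their expression is not limited to motor neurons, and each genotype is 1 transgenic line. Mice were 9 or 14 weeks old, stages that the study places before symptoms and early after their onset in hTDP-43A315T mice. MN-TRAP libraries numbered 5 and 4 (hTDP-43A315T, 9 and 14 weeks), 3 and 5 (hTDP-43WT) and 4 and 4 (Chat bacTRAP), and spinal cord libraries 5 and 4, 6 and 5, and 6 and 5. The labels name cervical spinal cord and give no sex, and the study describes the mice as female.

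Total counts ran from 472447 to 255802240 in MN-TRAP (median 19553070) and from 17493897 to 86654485 in spinal cord (median 40384236), and 4 MN-TRAP libraries of the control genotypes held fewer than 5000000. Motor neuron markers (7 genes, among them Chat and Mnx1) summed to a median of 100386 normalized counts in MN-TRAP and 10856 in spinal cord, with no overlap between the fractions. Oligodendrocyte markers (10 genes) summed to 44911 to 70616 in hTDP-43A315T MN-TRAP, 58163 to 636770 in hTDP-43WT and 43492 to 554163 in Chat bacTRAP. Spinal cord held 482017 to 816426. Reads of the pseudogene Lamr1-ps1 separated the hTDP-43A315T spinal cord libraries (at least 25.3 normalized counts) from the control ones (at most 1.1), but 3 control MN-TRAP libraries held 32 to 47.1, among them the largest 2 of all by depth (255802240 and 192686637 counts). Y-linked reads, 392 counts, were found in 1 Chat bacTRAP library of 14 weeks (replicate 4), and no other library had more than 12. Nothing says whether replicates are separate animals throughout, so p-values measure the spread between these libraries. The study kept part of each sample's lysate as input, so MN-TRAP and spinal cord libraries come from shared lysates, but the labels do not link them. The main fit treated all libraries as independent.

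The pore of a sodium or calcium channel is formed by a single alpha subunit, which sets the voltage at which the channel opens and how fast it closes. Beta subunits, and alpha2delta subunits in calcium channels, bind to it and adjust its gating and its transport to the membrane. Some gamma subunits belong to calcium channels of muscle, while others, the TARPs, are better known as partners of AMPA-type glutamate receptors. HCN channels open when the membrane becomes more negative and carry a depolarizing current that shapes resting potential and rhythmic firing. Epithelial sodium channels are not gated by voltage. In motor neurons, sodium channels at the axon initial segment start the action potential, P/Q- and N-type calcium channels trigger transmitter release at the muscle, and T-, R- and L-type channels shape bursts and sustained depolarization.

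RefSeq promoters (GRCm38.p6, from 250 bases before to 50 after the start of the gene) were held for 34 of the 47 genes. They are printed for members that differed between MN-TRAP and spinal cord in all 3 genotypes, so that the letters upstream of genes higher in motor neurons (Cacna2d3) and lower there (Cacna1i, Hcn2, Hcn4) can be set side by side. Scn3a and Cacna2d4 also belong to that set. Capitals mark the GC box, searched as GGGCGG and as CCGCCC on the other strand, with overlapping matches counted separately.
Cacna2d3, chr14:29721815-29722114, minus strand: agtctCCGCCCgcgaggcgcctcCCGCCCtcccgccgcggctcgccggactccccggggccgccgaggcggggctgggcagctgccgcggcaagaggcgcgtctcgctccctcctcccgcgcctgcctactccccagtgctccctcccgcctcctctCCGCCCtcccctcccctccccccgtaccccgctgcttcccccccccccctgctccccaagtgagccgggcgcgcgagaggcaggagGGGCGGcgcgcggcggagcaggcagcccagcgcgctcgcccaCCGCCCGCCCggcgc
Cacna1i, chr15:80286988-80287287, plus strand: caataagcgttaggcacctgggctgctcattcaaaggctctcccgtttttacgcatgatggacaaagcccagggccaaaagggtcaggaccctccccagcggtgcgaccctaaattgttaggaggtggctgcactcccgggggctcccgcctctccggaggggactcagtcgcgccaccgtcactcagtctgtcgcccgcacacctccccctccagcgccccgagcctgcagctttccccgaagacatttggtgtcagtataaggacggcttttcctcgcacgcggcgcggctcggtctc
Hcn2, chr10:79716384-79716683, plus strand: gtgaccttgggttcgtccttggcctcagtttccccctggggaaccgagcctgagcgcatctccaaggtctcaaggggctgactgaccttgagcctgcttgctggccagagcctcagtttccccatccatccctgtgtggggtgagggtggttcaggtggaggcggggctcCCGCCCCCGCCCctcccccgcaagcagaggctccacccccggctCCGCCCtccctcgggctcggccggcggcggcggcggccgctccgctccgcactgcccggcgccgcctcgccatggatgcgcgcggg
Hcn4, chr9:58822699-58822998, plus strand: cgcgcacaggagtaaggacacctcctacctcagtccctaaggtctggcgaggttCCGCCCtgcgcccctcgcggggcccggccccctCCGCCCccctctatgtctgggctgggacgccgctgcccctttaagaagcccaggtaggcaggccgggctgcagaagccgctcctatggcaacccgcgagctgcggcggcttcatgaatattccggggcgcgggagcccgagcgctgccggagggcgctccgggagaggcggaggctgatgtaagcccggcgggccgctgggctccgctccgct

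The promoter of Cacna2d3 was the richest of the 4 in G and C (81.3%) and held 1 GGGCGG and 5 CCGCCC. Hcn2 (72.3%) held 3 CCGCCC, Hcn4 (71.7%) held 2, and Cacna1i (62.7%) held neither. The median over all 32851 promoters was 52.7% G and C, and 35.7% of them held the GC box, against 20 of the 45 promoters of channel genes (44.4%). The RefSeq start of Hcn4 lies upstream of the gene start in the annotation used for exon lengths. A match describes letters in this window and is not a measured binding site.

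MN-TRAP was first compared with spinal cord within each genotype, with both ages pooled, to ask which channel genes stood out in motor neurons against the tissue around them. Values for hTDP-43A315T, hTDP-43WT and Chat bacTRAP are given in that order, and log2 differences are MN-TRAP minus spinal cord, so a value above 0 is higher in MN-TRAP. A gene was called when its adjusted p was below 0.05 and it differed at least 2-fold. Cacna2d3 was higher in MN-TRAP in all 3 genotypes, while Cacna1i, Hcn4, Hcn2, Scn3a and Cacna2d4 were lower in all 3. In all, 4, 4 and 3 of the 45 tested channel genes were called higher and 11, 9 and 9 lower. Among all 18838 tested genes, 13.3%, 9.8% and 9.25% were called higher and 24.1%, 19.8% and 22.8% lower, so the share of channel genes (8.89%, 8.89% and 6.67% higher, 24.4%, 20% and 20% lower) stood near that of all genes. The median log2 difference was -0.27, -0.29 and -0.18 for the channel genes and -0.1, -0.15 and -0.21 for all genes. In MN-TRAP, RNA that comes from few cells and RNA that is scarce in each cell cannot be told apart. Median-ratio scaling in place of TMM moved the median of all genes by -0.13 in hTDP-43A315T and left Cacna2d3 and Cacng5 there below 2-fold, at 0.91 and 0.98.

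**Figure D1:**
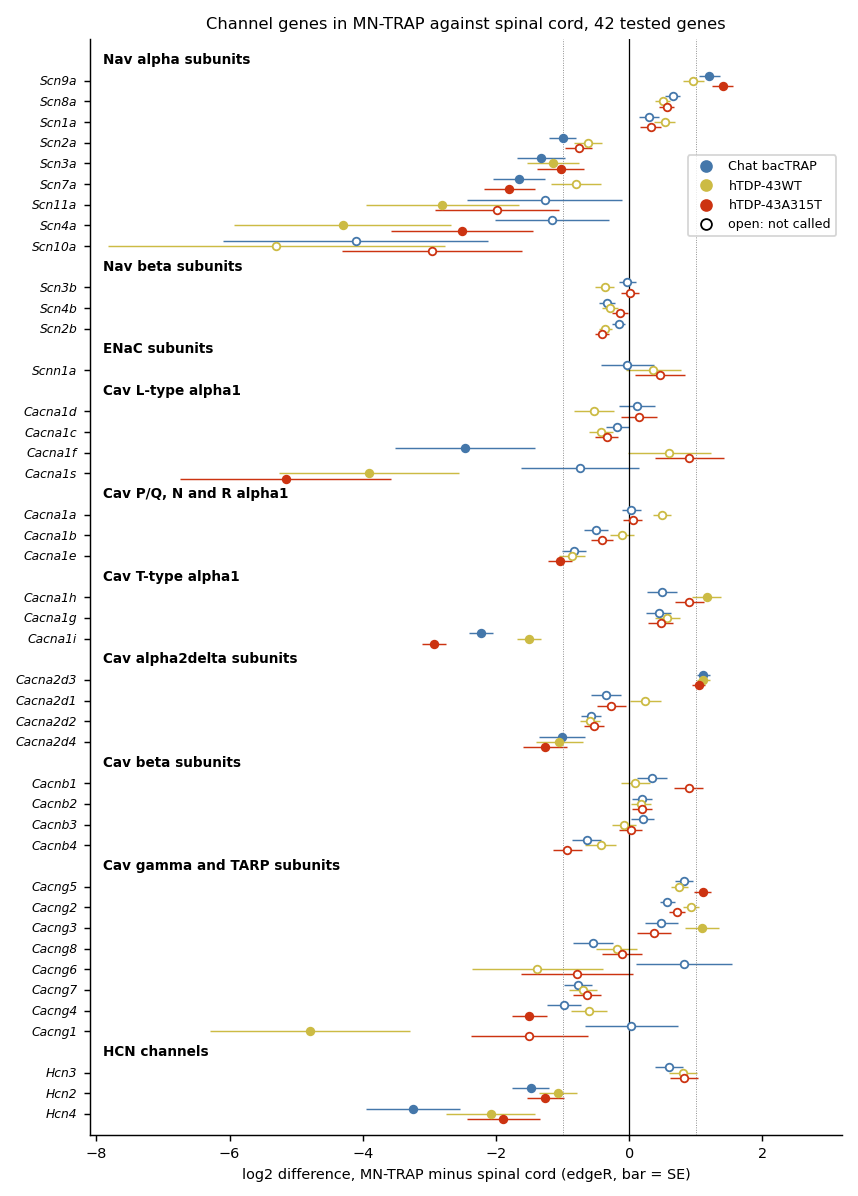
Log2 difference between MN-TRAP and spinal cord for 42 tested channel genes, grouped by subunit class, with 1 point per genotype and a bar for the standard error of the edgeR fit. Filled points were called; Cacna2d3 lies right of the 2-fold line and Cacna1i, Hcn2 and Hcn4 left of it in all 3 genotypes.

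Among sodium channel alpha subunits, Scn9a, a channel that amplifies slow depolarizations in peripheral neurons, was the member with the highest differences. Its lowest, median and highest levels were 193, 577 and 824 normalized counts in MN-TRAP and 176, 248 and 434 in spinal cord. The 2 ranges overlapped, in part through the library with the fewest counts (hTDP-43WT, 9 weeks, replicate 1, at 193). The log2 differences were 1.40 (SE 0.16, adjusted p = 1.38e-10), 0.96 (SE 0.16, adjusted p = 1.99e-06) and 1.2 (SE 0.16, adjusted p = 7.34e-09), the second just below the 2-fold limit. Scn8a, the main sodium channel of the mature axon initial segment and of nodes of Ranvier, ranged from 7438 over 9805 to 18266 in MN-TRAP and from 6258 over 7269 to 10493 in spinal cord. Its differences of 0.56, 0.50 and 0.65 passed the adjusted p in each genotype (at most 0.000217) but not the fold limit. Scn1a, which is prominent in fast-spiking neurons, differed by 0.32, 0.53 and 0.30 and passed the adjusted p in hTDP-43WT alone (0.00391).

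Scn3a, a sodium channel of embryonic neurons, and Scn2a, the form of immature initial segments and unmyelinated axons, lay on the other side. Scn3a had 0, 156 and 439 normalized counts (lowest, median, highest) in MN-TRAP and 208, 305 and 860 in spinal cord. The ranges overlapped in both control genotypes and were apart in hTDP-43A315T. Its log2 differences were -1.03 (SE 0.35), -1.14 (SE 0.39) and -1.32 (SE 0.36), all called. The first was -0.91, below 2-fold, without MN-TRAP replicate 2 of hTDP-43A315T at 14 weeks, and the second -0.76, with no call, without replicate 2 and -2.22 without replicate 3 of hTDP-43WT at 9 weeks. Scn2a differed by -0.76, -0.62 and -1.0 and was called in Chat bacTRAP alone, at the fold limit, where any of 6 single libraries decided the call. Scn7a, an atypical member that senses sodium in glia and sensory neurons, differed by -1.80, -0.80 and -1.65 and was called in hTDP-43A315T and Chat bacTRAP.

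The remaining alpha subunits are marks of other tissues and were near 0 in MN-TRAP. Scn10a and Scn11a belong to pain-sensing neurons and Scn4a to skeletal muscle. Their median level in MN-TRAP was 0, with reads in 4, 12 and 11 of the 25 libraries. In spinal cord the medians were 1.48, 3.31 and 5.93 and the highest libraries 178, 156 and 72.7. Scn4a differed by -2.51, -4.30 and -1.16, called in both TDP-43 genotypes. Scn11a differed by -1.98, -2.81 and -1.27, called in hTDP-43WT alone, and Scn10a by -2.96, -5.30 and -4.11, with no call. The Scn4a calls were ended by leaving out any of 9 and of 2 single libraries and the Scn11a call by any of 7, and with limma-voom none was called (Scn4a -1.71 and -0.72, adjusted p = 0.132 and 0.687, and Scn11a -0.75, adjusted p = 0.702).

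The sodium channel beta subunits Scn2b, Scn3b and Scn4b showed no call in any genotype. Scn3b differed by 0.01, -0.37 and -0.03 (MN-TRAP 279, 637 and 1300; spinal cord 599, 778 and 1085). Scn4b, which is linked to resurgent sodium current, had 8183, 11831 and 15610 in MN-TRAP and 10615, 14569 and 18200 in spinal cord and differed by -0.14, -0.29 and -0.33. Scn2b had 1419, 2662 and 4628 against 2905, 3684 and 4151 and differed by -0.41, -0.36 and -0.16. Scnn1a, the epithelial sodium channel subunit with enough reads to test, had 0, 67.6 and 169 in MN-TRAP and 33.5, 55.4 and 86.2 in spinal cord, and differed by 0.46, 0.36 and -0.03 with no call.

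Of the L-type alpha1 subunits, the neuronal forms Cacna1d and Cacna1c showed no call. Cacna1d, the form that opens at lower voltage, had 0, 221 and 340 normalized counts in MN-TRAP and 98.5, 215 and 304 in spinal cord, and differed by 0.15, -0.53 and 0.11. Cacna1c had 242, 419 and 1228 against 398, 618 and 826 and differed by -0.34, -0.42 and -0.18. Cacna1s, the L-type subunit of skeletal muscle, was at 0 in 16 of the 25 MN-TRAP libraries and differed by -5.16, -3.91 and -0.74, called in both TDP-43 genotypes, the second not without MN-TRAP replicate 3 of 9 weeks (-3.56). Cacna1f, the form of the retina, did not exceed 13.7 normalized counts in any MN-TRAP library or 8.21 in any spinal cord library, and differed by 0.90, 0.60 and -2.47, called in Chat bacTRAP. Leaving out any of 5 single libraries ended that call, and the difference was -0.20 (adjusted p = 0.811) with limma-voom and -1.16 (adjusted p = 0.15) with DESeq2.

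The P/Q- and N-type subunits, which open the release sites of motor axon terminals, did not differ 2-fold. Cacna1a (P/Q-type) had 1029, 1393 and 2966 normalized counts in MN-TRAP and 936, 1337 and 2241 in spinal cord, with differences of 0.05, 0.49 and 0.03. Cacna1b (N-type) had 129, 570 and 1459 against 541, 847 and 1070 and differed by -0.41, -0.11 and -0.50. Cacna1e, the R-type subunit, was lower in MN-TRAP: 242, 465 and 1174 against 777, 1103 and 1927. Its log2 differences were -1.04 (SE 0.18, adjusted p = 1.26e-06), -0.86 (SE 0.19, adjusted p = 0.000112) and -0.83 (SE 0.18, adjusted p = 8.48e-05), and it was called in hTDP-43A315T, where the fractions did not overlap.

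The 3 T-type subunits, which open at low voltage and drive rebound bursts, did not move together. Cacna1i, on chromosome 15 (80287238 to 80398279, GRCm38), had 59.5, 178 and 740 normalized counts in MN-TRAP (lowest, median, highest) and 698, 1018 and 1325 in spinal cord. In hTDP-43A315T and Chat bacTRAP the highest MN-TRAP library lay far below the lowest spinal cord library, and in hTDP-43WT a single MN-TRAP library, replicate 2 of 9 weeks at 740, reached into the spinal cord range. The log2 differences were -2.93 (SE 0.18, adjusted p = 5.07e-20), -1.51 (SE 0.18, adjusted p = 7.2e-10) and -2.22 (SE 0.18, adjusted p = 2.99e-15). Cacna1h had 257, 629 and 2279 in MN-TRAP and 278, 414 and 579 in spinal cord, and differed by 0.90, 1.16 and 0.49, called in hTDP-43WT but not without MN-TRAP replicate 2 of 9 weeks (0.70). Cacna1g had 322, 1296 and 2832 against 761, 1046 and 1750 and differed by 0.47, 0.57 and 0.44, with adjusted p of 0.0275, 0.00986 and 0.0405 and no 2-fold difference.

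Alpha2delta subunits bring calcium channels to the membrane, and for Cacna2d3 the fractions did not overlap in any of the 3 genotypes. It had 2755, 3985 and 5885 normalized counts in MN-TRAP and 1824, 1972 and 2296 in spinal cord, so every MN-TRAP library lay above every spinal cord library. The log2 differences were 1.04, 1.11 and 1.11 with an SE of 0.1 in each genotype, and the adjusted p was at most 1e-12. The fold limit was missed without MN-TRAP replicate 1 of 14 weeks in hTDP-43A315T (0.97) and without replicate 2 of 9 weeks in hTDP-43WT (0.95). Its relative Cacna2d4 had 0, 35.3 and 80 in MN-TRAP and 56, 78.7 and 126 in spinal cord and differed by -1.27 (SE 0.33), -1.05 (SE 0.35) and -1.01 (SE 0.34), called in all 3, though any of 4 single libraries ended the call in hTDP-43WT (-0.81 to -1.73 over all left out) and any of 9 that in Chat bacTRAP (-0.81 to -1.27). Cacna2d1 and Cacna2d2 bind gabapentin. Cacna2d2 had 451, 925 and 1555 against 1013, 1562 and 1987 and differed by -0.53, -0.59 and -0.57, with adjusted p of at most 0.00145 but below 2-fold, while Cacna2d1 had 355, 1090 and 4896 against 926, 1330 and 3589 and differed by -0.27, 0.24 and -0.35.

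Calcium channel beta subunits hold the channel's gate from inside the cell, and none of the 4 was called. Cacnb1 had 322, 2107 and 5147 normalized counts in MN-TRAP and 907, 1672 and 2092 in spinal cord and differed by 0.89, 0.09 and 0.34. Cacnb2 had 468, 1024 and 1303 against 689, 946 and 1392, with differences of 0.19, 0.18 and 0.19. Cacnb3 had 541, 1075 and 2590 against 711, 1256 and 1773 and differed by 0.02, -0.08 and 0.20. Cacnb4 had 630, 1647 and 9880 against 2292, 3260 and 6938 and differed by -0.93, -0.43 and -0.64; 16.0% of its exonic length overlaps A430018G15Rik on the other strand, and the counting did not use strand as far as the study states it.

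The TARPs fell on both sides. Cacng5 had 358, 735 and 907 normalized counts in MN-TRAP and 304, 397 and 482 in spinal cord and differed by 1.10, 0.75 and 0.82, with adjusted p of at most 6.23e-06 in each genotype and at least a 2-fold difference in hTDP-43A315T. Cacng2, also known as stargazin, had 4331, 5395 and 14379 against 2693, 3939 and 5033 and differed by 0.71, 0.93 and 0.57, below 2-fold with adjusted p of at most 2.89e-05. Cacng4 had 245, 549 and 3468 against 1001, 1419 and 2044 and differed by -1.50, -0.61 and -0.98, called in hTDP-43A315T. Cacng7 differed by -0.64, -0.70 and -0.77, Cacng8 by -0.11, -0.19 and -0.54, and Cacng3 by 0.37, 1.09 and 0.48, the second of which was called. That call rested on replicate 3 of hTDP-43WT at 14 weeks: without it the difference was 0.40, and it was 0.47 with limma-voom. Of the muscle-type gamma subunits, Cacng1 had 0, 5.03 and 54.1 in MN-TRAP and 1.1, 7.95 and 98.2 in spinal cord and differed by -1.50, -4.80 and 0.03, called in hTDP-43WT, and Cacng6 differed by -0.78, -1.38 and 0.82. In hTDP-43WT each MN-TRAP library of 9 weeks had 0 reads of Cacng1, so the size of -4.80, a mean over both ages, is poorly bounded. The MN-TRAP libraries of 14 weeks in that genotype held 6, 4, 8, 6 and 51 raw reads of it.

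Among the HCN genes, Hcn3 had 122, 322 and 830 normalized counts in MN-TRAP and 129, 202 and 318 in spinal cord and differed by 0.82, 0.81 and 0.59, with adjusted p of at most 0.0142 and below 2-fold; 17.1% of its exonic length overlaps Pklr.

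Hcn2, on chromosome 10 (79716634 to 79736108), and Hcn4, on chromosome 9 (58823412 to 58863175), were lower in MN-TRAP. Both proteins respond strongly to cyclic AMP, and Hcn4 is the slowest of the family. Hcn2 had 2708, 4594 and 22745 normalized counts in MN-TRAP and 7111, 15010 and 27775 in spinal cord. The MN-TRAP range reached high through replicate 3 of hTDP-43A315T at 9 weeks (22745) and replicate 2 of hTDP-43WT at 9 weeks (19015), and the fractions overlapped. Its log2 differences were -1.26 (SE 0.28, adjusted p = 0.000121), -1.07 (SE 0.29, adjusted p = 0.00157) and -1.48 (SE 0.28, adjusted p = 1.8e-05). Hcn4 had 0, 13.3 and 61.9 against 12.8, 79.3 and 179, with differences of -1.89 (SE 0.55, adjusted p = 0.00272), -2.08 (SE 0.67, adjusted p = 0.00741) and -3.25 (SE 0.71, adjusted p = 0.000127). These fitted sizes shifted with single MN-TRAP libraries: in hTDP-43WT the difference was -1.60 with no call without replicate 2 of 9 weeks, -3.0 without replicate 5 of 14 weeks and -5.62 without replicate 3 of 9 weeks, and in Chat bacTRAP it was -6.01 without replicate 4 of 14 weeks. For Hcn2 in hTDP-43WT, leaving out MN-TRAP replicate 1 or 3 or spinal cord replicate 6, all of 9 weeks, gave -0.86, -0.96 and -0.98, below 2-fold. The interneuron markers (6 genes) fell alongside, with median sums of 10368 in MN-TRAP and 38581 in spinal cord, as did those of oligodendrocytes (90244 and 614266) and astrocytes (26714 and 111720); their part in the lower channel genes was not tested.

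**Figure D2:**
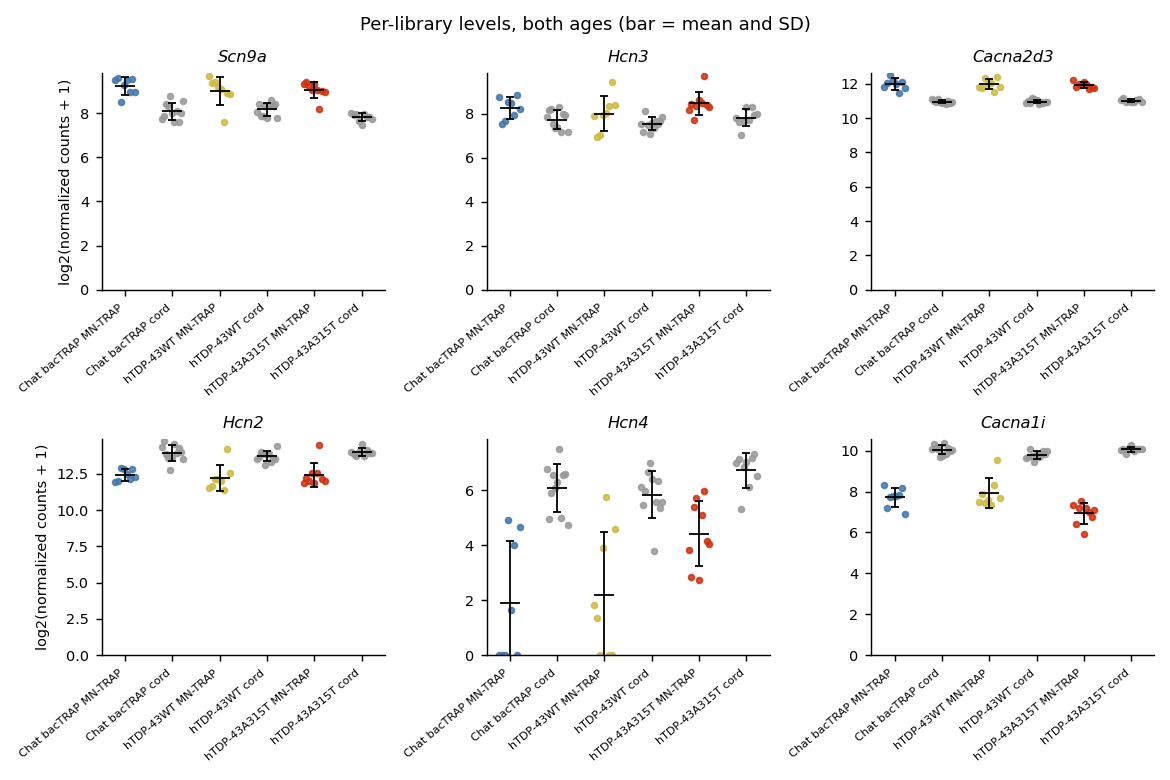
Level of Scn9a, Hcn3, Cacna2d3, Hcn2, Hcn4 and Cacna1i in each library, as log2 of the normalized count plus 1, by genotype and fraction with both ages together; black bars give the mean and SD. Cacna2d3 in MN-TRAP (2755 to 5885 normalized counts) lies above all spinal cord libraries (1824 to 2296), and Cacna1i in MN-TRAP lies below them except for 1 hTDP-43WT library.

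Of the 40 calls between MN-TRAP and spinal cord, 21 held when each library was left out in turn. Levels were then set side by side between genes, which needs a scale per length, and normalized counts per kb of exon were used. High medians per kb in MN-TRAP were those of Scn4b (2375), Hcn2 (1438) and Cacng7 (1415), and in spinal cord those of Hcn2 (4698), Scn4b (2924) and Cacng7 (2632). Below these in MN-TRAP came Cacng2 (979), Scn1a (696), Scn8a (622) and Scn2b (572). Within the T-type class the order differed by fraction: Cacna1g (128) stood above Cacna1h (64.4) and Cacna1i (18.0) in MN-TRAP, whereas Cacna1g and Cacna1i (both 103) stood above Cacna1h (42.4) in spinal cord. These per-kb levels are descriptions of pooled libraries and carry no test.

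**Figure D3:**
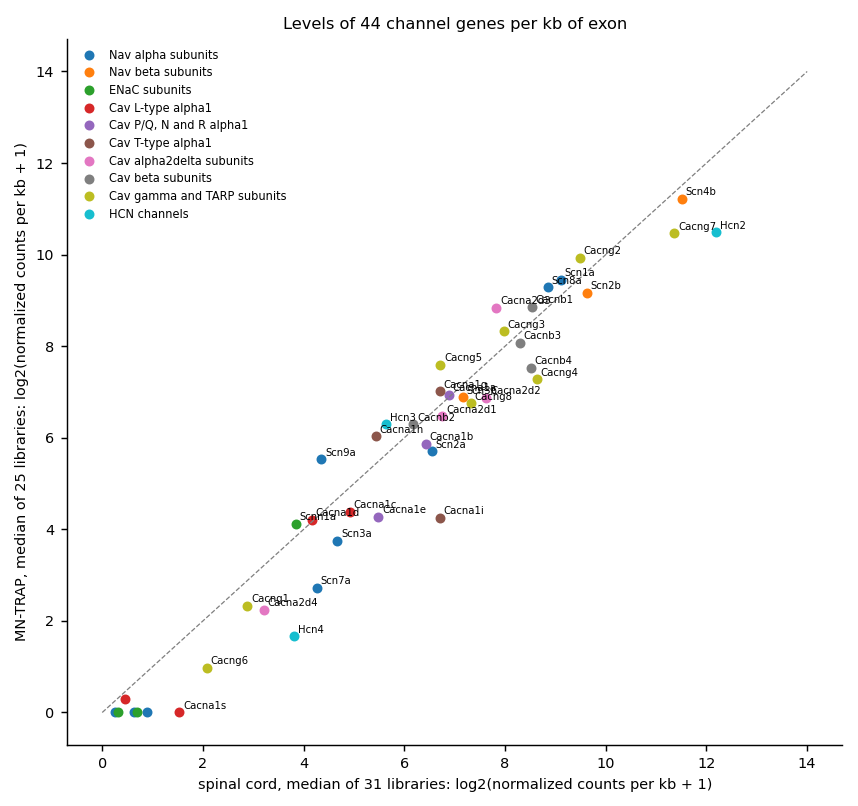
Median normalized counts per kb of exon of 44 channel genes, as log2 of the value plus 1, in 31 spinal cord libraries (horizontal) and 25 MN-TRAP libraries (vertical), coloured by subunit class. Points under the dashed line of equal level, such as Hcn2 (4698 in spinal cord, 1438 in MN-TRAP), were lower in MN-TRAP.

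Several members are known from sensory neurons or muscle, and their levels differed widely between libraries. Scn10a and Scn11a together reached 151 and 62 normalized counts in replicates 1 and 4 of hTDP-43A315T spinal cord at 14 weeks, 266 and 333 in replicates 2 and 3 of hTDP-43WT at 9 weeks and 155 in replicate 2 of Chat bacTRAP at 9 weeks. No other spinal cord library passed 9.77. The same 5 libraries had the highest sums of sensory neuron markers (6 genes, among them Avil, Trpv1 and Mrgprd), between 223 and 520, against 58.3 to 157 in the rest. In MN-TRAP the marker sum was 24.3 to 352, all 25 libraries had Mrgprd at 0, and Scn10a and Scn11a together did not pass 24.3. The muscle-type genes Scn4a, Cacna1s, Cacng1 and Cacng6 together had reads in 21 of 25 MN-TRAP and 31 of 31 spinal cord libraries and were highest in replicate 1 of Chat bacTRAP MN-TRAP at 14 weeks (332) and in spinal cord replicate 2 of the same group (314). Those 2 libraries also had the highest sums of the 8 skeletal muscle markers in their fraction, 25464 and 30585, where the median was 723 in MN-TRAP and 2387 in spinal cord. What part these other cells have in the values was not tested.

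**Figure D4:**
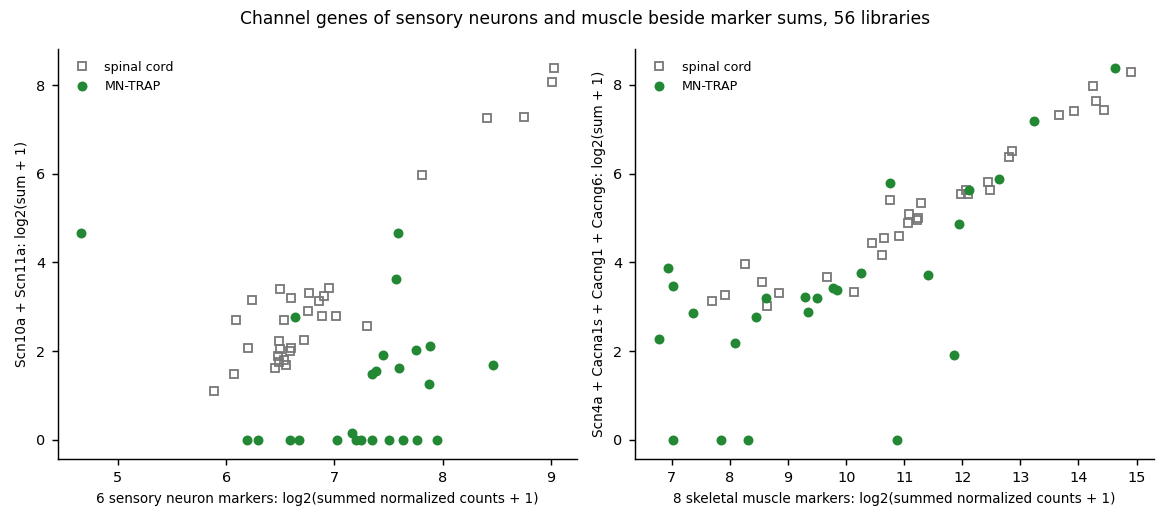
Left, summed Scn10a and Scn11a against summed sensory neuron markers, and right, summed Scn4a, Cacna1s, Cacng1 and Cacng6 against summed skeletal muscle markers, each as log2 of the summed normalized counts plus 1 in the 56 libraries (open squares spinal cord, filled circles MN-TRAP). In 5 spinal cord libraries Scn10a and Scn11a lie between 62 and 333 beside marker sums of 223 to 520, and the rest do not pass 9.77.

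The size of the difference between MN-TRAP and spinal cord was next compared between genotypes, as an interaction in the same fit and with no limit on fold. Cacna1i was the only channel gene with a call: its MN-TRAP over cord difference was larger in hTDP-43A315T than in hTDP-43WT, by -1.42 on the log2 scale (SE 0.24, adjusted p = 0.00113), where 0.648% of all genes were called. Between hTDP-43A315T and Chat bacTRAP the difference for Cacna1i was -0.71 (SE 0.24, adjusted p = 0.121), and between hTDP-43WT and Chat bacTRAP 0.70 (SE 0.24, adjusted p = 0.208). Those 2 contrasts called 0 channel genes with edgeR, DESeq2 or limma-voom, against 0.69% and 0.403% of all genes with edgeR, and 3 and 6 channel genes had an unadjusted p below 0.05. The call for Cacna1i rested on replicate 2 of hTDP-43WT at 9 weeks: without it the difference was -0.93 with an adjusted p of 0.23. Next in order of p, with no call, came Cacnb1 (0.79) against hTDP-43WT, Cacna1f (3.37) and Cacna1s (-4.42) for hTDP-43A315T against Chat bacTRAP, and Cacng1 (-4.83) and Cacna1f (3.08) for hTDP-43WT against Chat bacTRAP.

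Genotypes were then compared within MN-TRAP at 14 weeks, the early symptomatic age. Against hTDP-43WT, 5 channel genes were called in hTDP-43A315T, 1 higher and 4 lower (11.1% of the 45, where 5.36% of all genes were called, 0.69% higher and 4.67% lower). Cacnb1 was the higher: its 4 hTDP-43A315T libraries had 4140, 2294, 2107 and 2626 normalized counts and the 5 hTDP-43WT libraries 1134, 888, 845, 1246 and 2122. The groups overlapped only through the last of these, replicate 5, a control library with Lamr1-ps1 reads (47.1 normalized counts). The log2 difference was 1.13 (SE 0.31, adjusted p = 0.0181). Cacnb4 had 1375, 1956, 1574 and 1521 in hTDP-43A315T and 2551, 4044, 9880, 2769 and 1625 in hTDP-43WT, a difference of -1.37 (SE 0.32, adjusted p = 0.0071). Cacna2d1 had 1130, 1063, 1090 and 884 against 1343, 2473, 4896, 1427 and 1017 and differed by -1.08 (SE 0.33, adjusted p = 0.0305). For Cacnb4 and Cacna2d1 too, the lowest hTDP-43WT value came from replicate 5.

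The TARP genes Cacng3 and Cacng4 were the other members lower in hTDP-43A315T than in hTDP-43WT at this age. Cacng3 had 463, 862, 779 and 766 normalized counts in hTDP-43A315T and 871, 632, 7561, 834 and 871 in hTDP-43WT, with a log2 difference of -1.57 (SE 0.37, adjusted p = 0.00715). Cacng4 had 753, 261, 385 and 468 against 691, 858, 3468, 478 and 327 and differed by -1.27 (SE 0.38, adjusted p = 0.0293). In Cacnb4, Cacna2d1, Cacng3 and Cacng4 alike the highest hTDP-43WT value came from replicate 3. Without that library no channel gene was called, and the differences were 1.01 for Cacnb1, -0.79 for Cacnb4, -0.59 for Cacna2d1, -0.20 for Cacng3 and -0.32 for Cacng4. The call of Cacna2d1 was ended by leaving out any of 6 single libraries, that of Cacng4 by any of 4 and that of Cacnb1 by any of 3. Oligodendrocyte markers summed to 58163 to 636770 in the hTDP-43WT libraries of that age and to 51888 to 70616 in the hTDP-43A315T ones, and their part was not tested. With limma-voom or with the MN-TRAP libraries fitted alone, 0 channel genes were called in this comparison. The shares of all genes called in those fits are not given here.

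Against Chat bacTRAP at 14 weeks, hTDP-43A315T had 3 called channel genes (6.67%, beside 10.4% of all genes), and all 3 are rare in motor neurons. Cacng6 had 8.12 normalized counts in 1 hTDP-43A315T library and 0 in the others, and 239, 0, 0 and 0 in Chat bacTRAP (log2 difference -4.55, SE 1.29, adjusted p = 0.0153). Cacng1 had 0, 0, 9.16 and 0 against 53.8, 0, 54.1 and 5.82 (-4.36, SE 1.39, adjusted p = 0.0291). Any of 5 single libraries, left out, ended the Cacng1 call (-8.61 to -3.74 over all left out). The Cacng6 value of 239 and the first Cacng1 value come from replicate 1, the library whose skeletal muscle markers summed to 25464; without it neither was called, and the fitted difference of Cacng6 was 5.08, against a group then at 0 throughout. Cacna1f had 0, 3.71, 11.5 and 12.1 in hTDP-43A315T and no read in any Chat bacTRAP library, which at a floor of 3 counts over the group makes it at least 3.1-fold higher. Its call rested on 17 counts. The edgeR fit without replicate 1 (adjusted p = 0.083) or replicate 3 (adjusted p = 0.0531) of Chat bacTRAP also lost the Cacna1f call. Below the fold limit, Cacna1e was lower in hTDP-43A315T, with 317 to 534 against 678 to 1174 normalized counts and no overlap (log2 difference -0.85, SE 0.27, adjusted p = 0.0263).

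Between the control genotypes at 14 weeks, 3 channel genes were called in MN-TRAP as well (beside 13.2% of all genes, a median shift of 0.21 over all genes, and 0.09 with median-ratio scaling). Cacng3 was higher in hTDP-43WT (871, 632, 7561, 834 and 871 normalized counts against 512, 1300, 1371 and 1141, log2 difference 1.10, SE 0.37, adjusted p = 0.0285). Without replicate 3 of hTDP-43WT that difference was -0.27, so its direction rested on 1 library. Cacna1f had 0 to 8.28 against 0 in each Chat bacTRAP library, at least 1.2-fold higher at the same floor. Leaving out any of 4 single libraries ended the Cacna1f call. Cacng6 had 0 to 34.2 against 239, 0, 0 and 0 (-2.84, SE 1.07, adjusted p = 0.0498). Without replicate 1 of Chat bacTRAP, the library with the 239 and with muscle markers at 25464 normalized counts, the fitted Cacng6 difference turned to 6.78 with no call. Median-ratio scaling and DESeq2 also lost that call (adjusted p = 0.0508 and 0.0542).

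At 9 weeks, before symptoms, 2 channel genes were called between hTDP-43A315T and hTDP-43WT in MN-TRAP (4.44%, beside 2.14% of all genes), among them Cacna1i. It had 59.5, 147, 128, 106 and 135 normalized counts in hTDP-43A315T and 322, 740 and 208 in hTDP-43WT. All 5 values lay below all 3, and the log2 difference was -1.90 (SE 0.27, adjusted p = 1.86e-05). Scn7a had no call (-2.01, SE 0.59, adjusted p = 0.0524). Of the 3 hTDP-43WT libraries, the first held 472447 counts, the lowest depth of all, and its Cacna1i value of 322 rested on 5 raw reads. The third, replicate 3, is a control library with Lamr1-ps1 reads (32 normalized counts). Without the second, replicate 2, the difference of Cacna1i was -0.91 with an adjusted p of 0.972. These adjusted p come from the edgeR model of all 56 libraries.

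No channel gene was called at 9 weeks between hTDP-43A315T and Chat bacTRAP with edgeR, DESeq2 or limma-voom, where 0.541% of all genes were called with edgeR and 8 channel genes had an unadjusted p below 0.05. The smallest p were those of Cacna1e (-0.87, SE 0.25, adjusted p = 0.0843), Cacna1i (-0.76, SE 0.25, adjusted p = 0.149) and Cacna1s (-5.09, SE 1.73, adjusted p = 0.178). Cacna1i had 220, 226, 289 and 118 normalized counts in Chat bacTRAP, and its hTDP-43A315T values overlapped them. Between hTDP-43WT and Chat bacTRAP at 9 weeks edgeR and limma-voom called 0 channel genes and DESeq2 2, with 11 at an unadjusted p below 0.05 and 0.223% of all genes called. Among the smallest p were those of Cacna1i (1.14, adjusted p = 0.0627) and Cacna1h (1.11, adjusted p = 0.169).

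In spinal cord no channel gene was called in any of the 6 comparisons of genotype with edgeR or with DESeq2. Of all genes, edgeR called 0.0212% (hTDP-43A315T against Chat bacTRAP), 0.0265% (hTDP-43A315T against hTDP-43WT) and 0.00531% (hTDP-43WT against Chat bacTRAP) at 14 weeks, and 0.0372%, 0.0212% and 0% at 9 weeks. Limma-voom made 10 calls of channel genes over the 6 comparisons, 1, 6 and 2 at 14 weeks and 0, 1 and 0 at 9 weeks, where it called 3.1%, 2.3%, 1.17%, 1.2%, 2.59% and 0.00531% of all genes in the same order, and 23 had an unadjusted p below 0.05 in edgeR. Cacna1e had the smallest p of the channel genes against Chat bacTRAP at both ages. At 14 weeks it had 858, 777, 784 and 806 normalized counts in hTDP-43A315T and 968, 1242, 1360, 1651 and 1927 in Chat bacTRAP, with no overlap (log2 difference -0.79, SE 0.25, adjusted p = 1). At 9 weeks it had 828, 946, 842, 924 and 839 against 1080 to 1625, again with no overlap (-0.50, SE 0.22, adjusted p = 1). Scn10a was among the 3 smallest p in each of the 6 comparisons, for example at 6.28 (adjusted p = 0.463) for hTDP-43A315T against hTDP-43WT at 14 weeks and -4.60 (adjusted p = 0.867) at 9 weeks. Others among the first 3 were Cacna1a, higher in hTDP-43A315T than in hTDP-43WT at 9 weeks by 0.49 (adjusted p = 1) with no overlap, Scn7a, which differed by -1.06 between hTDP-43WT and Chat bacTRAP at 14 weeks, and Cacng1, which differed by -2.69 between hTDP-43A315T and hTDP-43WT at 14 weeks.

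**Figure D5:**
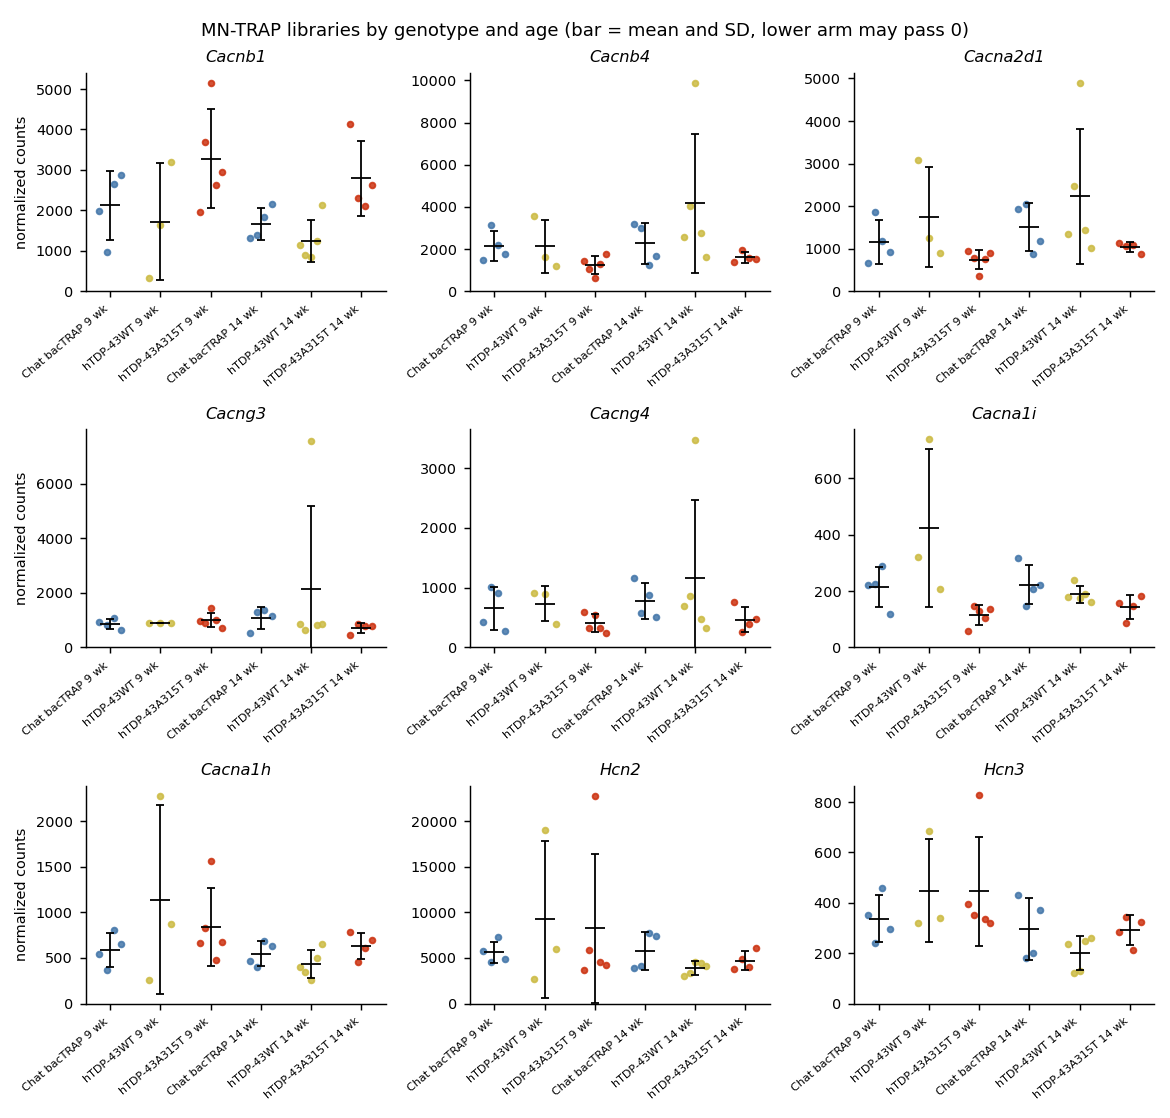
Normalized counts of 9 channel genes in each MN-TRAP library by genotype and age, with the mean and SD as black bars. Single libraries stand apart: Cacng3 at 7561 in replicate 3 of hTDP-43WT at 14 weeks, and Hcn2 at 22745 in replicate 3 of hTDP-43A315T and 19015 in replicate 2 of hTDP-43WT at 9 weeks.

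Age was compared within each genotype, 14 against 9 weeks. In hTDP-43A315T MN-TRAP 0 channel genes were called with edgeR, DESeq2 or limma-voom, beside 0.0106% of all genes, and 4 had an unadjusted p below 0.05; Cacng8 (-0.97, adjusted p = 0.652), Hcn3 (-0.67, adjusted p = 0.658) and Hcn2 (-0.87, adjusted p = 0.672) came first. In hTDP-43WT MN-TRAP 8 were called (17.8%, beside 7.03% of all genes), 2 higher and 6 lower at 14 weeks (3.89% and 3.14% of all genes). The lower included the T-type genes Cacna1h (log2 difference -1.50, SE 0.33, adjusted p = 0.00478) and Cacna1i (-1.24, SE 0.27, adjusted p = 0.00408), the HCN genes Hcn2 (-1.26, SE 0.42, adjusted p = 0.043) and Hcn3 (-1.19, SE 0.33, adjusted p = 0.0191) and Cacng8 (-1.60, SE 0.47, adjusted p = 0.0243). Cacnb4 (1.2, SE 0.38, adjusted p = 0.0328) and Cacng3 (1.27, SE 0.43, adjusted p = 0.0455) were higher.

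The values behind these age calls came largely from 2 libraries. Cacna1h had 258, 2279 and 872 normalized counts at 9 weeks and 397, 345, 257, 497 and 653 at 14 weeks. Hcn2 had 2708, 19015 and 5981 against 3000, 3301, 4603, 4483 and 4144, and Hcn3 had 322, 685 and 338 against 237, 122, 130, 248 and 260, the only one of the 8 without overlap. Cacng8 had 129, 690 and 386 against 105, 93.4, 124, 185 and 229. The second value at 9 weeks is the highest each time. Without that library, replicate 2, none of the 8 was called, and the differences were -0.59 for Cacna1h, -0.25 for Cacna1i, -0.16 for Hcn2, -0.66 for Hcn3 and -1.05 for Cacng8. Without replicate 3 of 14 weeks, Cacnb4 was at 0.63 and Cacng3 at -0.10.

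In Chat bacTRAP MN-TRAP the age comparison called Cacna1f alone (beside 5.15% of all genes). It had 2.1, 8.67, 0 and 5.4 normalized counts at 9 weeks and no read at 14 weeks, at least 3.47-fold lower at the floor of 3 counts over the group. Leaving out any of 4 single libraries ended that call. DESeq2 and limma-voom called 0, and Scn8a (0.46, adjusted p = 0.0865) and Cacng6 (2.70, adjusted p = 0.151) followed in order of p. In spinal cord the 3 age comparisons called 0 channel genes and 0 of all genes with edgeR; DESeq2 and limma-voom also called 0 channel genes, and 7 had an unadjusted p below 0.05. Scn10a and Scn11a had the smallest p in each of these 3 comparisons, and the 5 spinal cord libraries named above hold most of their reads. Whether a genotype difference changed from 9 to 14 weeks was tested as an interaction in MN-TRAP: 0 channel genes were called against Chat bacTRAP (beside 1.72% of all genes, 3 at an unadjusted p below 0.05, 0 with DESeq2 and limma-voom) and 0 against hTDP-43WT (beside 0.143%, 8 at an unadjusted p below 0.05, 2 with DESeq2 and 0 with limma-voom), where Cacna1i came first (1.51, SE 0.36, adjusted p = 0.0611) and Cacng3 (-1.81) was among the first. Against Chat bacTRAP the first were Cacna1f (5.57), Cacng7 (-1.03) and Cacna2d2 (-0.62).

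All 22 calls of genotype or age in MN-TRAP, which concern 14 channel genes, were lost on leaving out some single library. Replicate 3 of hTDP-43WT at 14 weeks ended 13 of them, replicate 2 of hTDP-43WT at 9 weeks 10, and replicate 1 of Chat bacTRAP at 14 weeks 7, and each of the 22 was ended by at least 1 of these 3. With the MN-TRAP libraries fitted alone, edgeR called 0 channel genes in each of the 6 comparisons that held these calls. That fit gave a value for 19 of the 22, and the others could not be called in it. The share of all genes called in that fit is not given here, so the 0 does not set channel genes apart from other genes.

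A list of 29 partner genes, which anchor, modify or are opened by these channels, was followed with the same fit. In MN-TRAP against spinal cord 4, 3 and 3 of the 29 were called higher (beside 13.3%, 9.8% and 9.25% of all genes) and 2, 0 and 1 lower (beside 24.1%, 19.8% and 22.8%), with median log2 differences of 0.13, 0.09 and 0.05. Fgf11, an intracellular FGF-homologous factor that binds sodium channels, was higher by 2.17, 2.04 and 1.99, and Calm2, which encodes calmodulin, by 1.97, 1.60 and 1.48. Gem, a small GTPase that restrains calcium channels through their beta subunits, was higher by 2.83, 2.93 and 2.13. Rem2, a relative of Gem, was called in hTDP-43A315T (1.37), the active-zone gene Rimbp2 was lower in hTDP-43A315T (-1.2) and Chat bacTRAP (-1.32), and Ryr1, the calcium release channel of muscle, was lower in hTDP-43A315T (-2.15). Between genotypes in MN-TRAP at 14 weeks, Rem2 was higher (1.06) and Ryr1 lower (-4.40) in hTDP-43A315T than in Chat bacTRAP. That comparison called 10.4% of all genes. Skeletal muscle markers summed to 121 to 390 in those hTDP-43A315T libraries and to 349 to 25464 in the Chat bacTRAP ones, and their part in the Ryr1 difference was not tested. Gem was higher in hTDP-43WT than in Chat bacTRAP (1.58) and higher at 14 than at 9 weeks in hTDP-43WT (1.32). Those comparisons called 13.2% and 7.03% of all genes. No partner gene was called in any other comparison of genotype or age, where at most 5.36% of all genes were called. Partner genes are not given with single libraries left out, so these calls lack the check made for the channel genes.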

How the data were processed

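RNA-seq libraries of MN-TRAP (25) and spinal cord (31) were read from the files of the authors, who aligned reads to the mouse genome (mm10) with STAR and counted them with featureCounts. The deposited counts are raw reads per Ensembl gene, and the deposited normalized signal is those counts divided by 1 size factor per library, which the authors computed with DESeq2. Levels in the text are these normalized counts, per kb of exon (GRCm38 annotation) only between genes. Tests used the raw counts: genes kept by filterByExpr (18838 of 43629) were scaled with TMM and fitted with edgeR 4.0.16 (quasi-likelihood, R 4.3.3), 12 groups in 1 model of 56 libraries, with p-values adjusted by Benjamini-Hochberg over all tested genes. A call required an adjusted p below 0.05 and a 2-fold difference, without the fold limit for interactions. Symbols were missing for 1167 genes. DESeq2 1.42.0, limma 3.58.1 (voom), median-ratio scaling, no filter, replicate blocks, fits of a genotype or fraction alone and fits without each library or a set of libraries were alternatives, of which DESeq2 on MN-TRAP alone and the fit without libraries rich in oligodendrocyte markers were added after seeing the data. The members and gene lists were chosen with earlier results of these data known. The values of 3 members are not reported here, although counts over all members include them. The other tested members were named, with levels for the highest and lowest 2 of a class of 4 or more and for all of smaller classes, and in other comparisons the called members or the 3 with the smallest p; other levels were added after their values were seen. Of partner genes, up to 3 called ones with the smallest p were to be named, and the further called ones were added. The code was tested on simulated data. Depth limits precision most in the 4 MN-TRAP libraries under 5000000 counts. Human TDP-43 was not analysed here, and mouse Tardbp does not measure the transgene.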

Additional observations from a re-analysis of the deposited data

Results flagged for a closer look

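Of 88 pairs of a channel gene and a group of 4 to 6 libraries, 10 held a library far from the rest of its group by Dixon's criterion. Chance alone meets it in about 1 in 20 groups of normal values, a rate that does not hold for genes near 0, and in 4 of the 10 all other libraries of the group were at 0. The pairs cover 17 of the genes with a call in all 3 genotypes between MN-TRAP and spinal cord or with a call between genotypes or ages. Those calls were made on the same values, so 10 of 88 cannot be set against the rate of 1 in 20. A share over all genes is not given. In MN-TRAP of hTDP-43WT at 14 weeks, replicate 3 had 7561 normalized counts of Cacng3 where the others had 632 to 871, and 3468 of Cacng4 where the others had 327 to 858. Hcn2 stood at 22745 in replicate 3 of hTDP-43A315T MN-TRAP at 9 weeks, against 3733 to 5894 in the other 4. Hcn4 stood at 53.1 in replicate 5 of hTDP-43WT MN-TRAP at 14 weeks (others 0 to 14.1) and at 29.1 in replicate 4 of Chat bacTRAP at 14 weeks (others 0), the library with Y-linked reads and 4801258 counts.

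Cacng6 was flagged in all 3 genotypes at 14 weeks in MN-TRAP, at 239 in replicate 1 of Chat bacTRAP and 8.12 in replicate 1 of hTDP-43A315T (the others at 0 in both), and at 34.2 in replicate 1 of hTDP-43WT (others 0 to 8.28). Cacng1 stood at 9.16 in replicate 3 of hTDP-43A315T MN-TRAP at 14 weeks, with the others at 0. In spinal cord, Cacna2d4 stood at 90.6 in replicate 1 of hTDP-43A315T at 14 weeks (others 69.3 to 70.7).

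Cacna1i was flagged because its MN-TRAP over cord difference differed between hTDP-43A315T and hTDP-43WT by -1.42 on the log2 scale in the edgeR interaction (adjusted p = 0.00113); without replicate 2 of hTDP-43WT at 9 weeks it was -0.93 (adjusted p = 0.23).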

How the results depend on the processing

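Counts of called channel genes are given here as alternative in place of main value, by setting. A share of all genes stands beside them only for the fits without a set of libraries. The other counts therefore do not separate a shift of channel genes from a shift of all genes. Median-ratio scaling gave 1 in place of 4 higher in hTDP-43A315T MN-TRAP than in cord, 0 in place of 3 for hTDP-43WT against Chat bacTRAP in MN-TRAP at 14 weeks, and 1 in place of 0 for the change with age of hTDP-43A315T against hTDP-43WT. No filter gave 2 and 0 for the first 2 of these, 5 in place of 8 for age in hTDP-43WT MN-TRAP and 0 in place of 1 for age in Chat bacTRAP MN-TRAP. DESeq2 gave 1 in place of 4 higher in hTDP-43A315T, 1 for hTDP-43WT against Chat bacTRAP at 14 weeks, 4 in place of 2 for hTDP-43A315T against hTDP-43WT and 2 in place of 0 for hTDP-43WT against Chat bacTRAP at 9 weeks, 0 for age in Chat bacTRAP, and 2 for the change with age. Limma-voom gave 2 in place of 4 higher in hTDP-43WT, 0 in all 4 MN-TRAP genotype comparisons and both age comparisons that had calls, 0 in place of 1 for the MN-TRAP over cord difference of hTDP-43A315T against hTDP-43WT, and in spinal cord, in place of 0, 1 (hTDP-43A315T against Chat bacTRAP), 6 (against hTDP-43WT) and 2 (hTDP-43WT against Chat bacTRAP) at 14 weeks and 1 (hTDP-43A315T against hTDP-43WT) at 9 weeks. The MN-TRAP libraries fitted alone gave 0 in all 6 of those comparisons with edgeR, and with DESeq2 0 in 5 and 1 for hTDP-43A315T against hTDP-43WT at 9 weeks. The edgeR fit gave a value for 19 of the 22 calls of genotype or age. A genotype fitted alone gave 5 in place of 9 lower in Chat bacTRAP.

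Without libraries under 5000000 counts, hTDP-43A315T and hTDP-43WT against Chat bacTRAP had 6 calls each at 14 weeks in place of 3, and 1 and 2 at 9 weeks in place of 0, age in Chat bacTRAP had 2, and the MN-TRAP over cord difference of hTDP-43A315T against Chat bacTRAP and the change with age against hTDP-43WT had 1 each in place of 0. The same fit called 20.2%, 21.5%, 1.49%, 0.736%, 14.4%, 7.91% and 0.643% of all genes in these comparisons. It left Chat bacTRAP MN-TRAP at 14 weeks with replicates 1 and 3 and hTDP-43WT MN-TRAP at 9 weeks with replicates 2 and 3. Without the 3 control libraries with Lamr1-ps1 reads, hTDP-43WT against Chat bacTRAP had 5 at 14 weeks and 6 at 9 weeks, hTDP-43A315T had 2 against Chat bacTRAP and 9 against hTDP-43WT at 9 weeks, age in hTDP-43WT had 13, the MN-TRAP over cord differences had 1, 6 and 2 (hTDP-43A315T against Chat bacTRAP, against hTDP-43WT, and hTDP-43WT against Chat bacTRAP), and the change with age against hTDP-43WT had 8. Of all genes that fit called 14.4%, 8.99%, 3.96%, 15.1%, 18.9%, 3.9%, 10.9%, 4.37% and 11.2%. It left hTDP-43WT MN-TRAP at 9 weeks with replicate 1 (472447 counts) and replicate 2 alone. Without the 3 MN-TRAP libraries at the cord level of oligodendrocyte markers, hTDP-43A315T against Chat bacTRAP at 14 weeks and age in Chat bacTRAP had 0, hTDP-43A315T against hTDP-43WT and hTDP-43WT against Chat bacTRAP at 9 weeks had 4 and 3, the MN-TRAP over cord difference of hTDP-43WT against Chat bacTRAP had 1, and the change with age against hTDP-43WT had 3, beside 7.05%, 3.88%, 4.16%, 1.69%, 2.74% and 1.4% of all genes. The cause of these shifts was not tested.

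Leaving out each library in turn gave 3 to 4, 3 to 5 and 2 to 3 channel genes higher and 9 to 13, 6 to 10 and 6 to 14 lower in MN-TRAP (hTDP-43A315T, hTDP-43WT, Chat bacTRAP). At 14 weeks it gave 0 to 7 (hTDP-43A315T against Chat bacTRAP), 0 to 5 (against hTDP-43WT) and 1 to 5 (hTDP-43WT against Chat bacTRAP), and at 9 weeks 0 to 1, 0 to 8 and 0 to 6. Age gave 0 to 10 in hTDP-43WT and 0 to 3 in Chat bacTRAP MN-TRAP, the MN-TRAP over cord differences 0 to 5 for hTDP-43A315T against hTDP-43WT and 0 to 2 for hTDP-43WT against Chat bacTRAP, and the change with age against hTDP-43WT 0 to 6. All spinal cord comparisons and age in hTDP-43A315T stayed at 0 when single libraries were left out. The shares of all genes called in these fits are not given, so the ranges are not read as particular to channel genes. Single genes reversed in 8 fits: Cacng6 reached 5.08 (hTDP-43A315T) and 6.78 (hTDP-43WT) against Chat bacTRAP at 14 weeks without replicate 1 of Chat bacTRAP, which leaves that group at 0, and 5.12 and 7.11 without the libraries rich in oligodendrocyte markers; over all libraries left out in turn it ran from -9.61 to 5.08 and from -4.76 to 6.78. Cacng3 was -0.11 with limma-voom and -0.27 without replicate 3 of hTDP-43WT against Chat bacTRAP, and -0.01 and -0.1 for age in hTDP-43WT, with highest values of 1.34 and 1.51 when other single libraries were left out.

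The replicate block gave 1 in place of 3 calls for hTDP-43WT against Chat bacTRAP at 14 weeks and 4 in place of 8 for age in hTDP-43WT MN-TRAP, and a replicate block within genotype and age gave 2 in place of 4 higher in hTDP-43WT. The 25 same-numbered pairs of MN-TRAP and cord libraries correlated between -0.284 and 0.181, 5 of them over 0.1, and 6 correlated best with their own number, so the numbers were not taken as pairs. All 5 pairs over 0.1, and 5 of the 6, were among the 9 of hTDP-43A315T, where the labels do not say whether a number marks 1 lysate. The block within genotype and age lost the Scn4a call there (-2.40, adjusted p = 0.0564).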

Other observations

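Of 31 channel genes with a median of at least 100 normalized counts in MN-TRAP, replicate 3 of hTDP-43A315T and replicate 2 of hTDP-43WT, both at 9 weeks, were each among the 2 highest of the 25 MN-TRAP libraries for 11 and 10 genes, and they held the highest 2 values together for 6. This was noticed after the values were seen. The same count over all genes is not given, so these numbers do not set channel genes apart. Motor neuron markers summed to 196914 normalized counts in that hTDP-43A315T library, the highest MN-TRAP sum. They summed to 122921 in that hTDP-43WT library, where Chat bacTRAP MN-TRAP reached 131286. Hcn2 had 22745 and 19015 in these 2 libraries and at most 7762 in the other 23, and Cacna1h had 1561 and 2279 against at most 872. Cacng7 (8398 and 7626, at most 5320 elsewhere), Cacng8 (1300 and 690, at most 413), Hcn3 (830 and 685, at most 458) and Cacna1g (2652 and 2832, at most 2174) were the others. The libraries belong to different genotypes, and what they share was not tested.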
